A study of Homo sapiens with 30 samples.

Results

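TRAIL, encoded by TNFSF10, is a death ligand of the TNF superfamily, and 7 genes of its pathway are described here out of 38122 in the table: TNFSF10, the related ligand gene TNFSF15, the TRAIL receptor genes TNFRSF10A, TNFRSF10B and TNFRSF10D, and CASP8 and CFLAR, which act inside the cell. They were picked by name for their values at pH 6.5 and pH 7.4 in 3 cancer lines, so their differences between the 2 pH values are a description. They are printed without p-values, and how many passed the threshold is given beside the share of all genes that did, with nothing read from it. Their levels in one line against another at the same pH were not the comparison used for that choice and were tested. Those tests reuse the same libraries and values, so their p-values are not free of the choice. Beside the 7 genes stand 82 other genes of the death pathway, from 7 lists of 92 symbols in all, of which 89 were matched. These were tested in every comparison where their counts were high enough. The lists too were chosen with earlier results of these data known, so their p-values for pH carry that limit.

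TRAIL binds death receptors on the cell surface, which gather the adaptor FADD and procaspase-8 into a death-inducing complex where caspase-8 is activated. The receptors DR4 (TNFRSF10A) and DR5 (TNFRSF10B) carry a cytoplasmic death domain, whereas the decoy receptors DcR1 (TNFRSF10C) and DcR2 (TNFRSF10D) bind TRAIL without a working one, and osteoprotegerin (TNFRSF11B) is a soluble receptor. The protein c-FLIP, from CFLAR, resembles caspase-8 and competes for its place in the complex. TRAIL is known as a ligand that many carcinoma cells are sensitive to while most normal cells are not.

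The lines were FaDu, from a squamous carcinoma of the hypopharynx, HCT116, from a colon carcinoma, and SiHa, from a squamous carcinoma of the cervix. Each was grown at pH 7.4 or at pH 6.5, the latter after at least 1 month at that pH, which gave 6 groups of 5 libraries. No gene was altered and no death ligand was named as added. All groups were kept at 37 °C in 5% CO2 and shared a medium with 10 mM glucose, 2 mM glutamine, 10% serum, 25 mM HEPES and 25 mM PIPES. Separate cultures or separately adapted populations are not named in the labels, so the spread behind each p-value is that between libraries and may be technical.

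Libraries held 21.02 to 55.7 M reads. Where a gene had 0 reads, up to 3 are allowed for by counting error alone, which is 1.90 to 5.01 normalised counts. Libraries labelled FaDu pH 7.4 replicates 2 to 5 carried genes restricted to HCT116 at a median of 28.2% to 77.5% of their HCT116 level. Those labelled HCT116 pH 6.5 replicates 5 to 7 carried SiHa genes at 35.9% to 103%, and in the 21 libraries kept the genes of other lines had medians of no more than 0.0656%. These 7 libraries were set apart. So were SiHa pH 7.4 replicates 6 and 7, which carried SiHa genes at 66.0% to 70.9% of their level at pH 6.5, against 78.8% to 81.4% in the other 3. In these SiHa libraries the genes of other lines had medians of no more than 0.0419%, as low as in the kept libraries. That left 5 against 1 in FaDu, 2 against 5 in HCT116 and 5 against 3 in SiHa, pH 6.5 first, and results that rest on the libraries set apart are given with and without them. Of 6 squamous markers, 6 were at a mean of 10 or more in FaDu, 5 in SiHa and 4 in HCT116, with sums of 269178 to 480267, 6610 to 12552 and 9243 to 20357, so the list separated FaDu but not SiHa from HCT116. Of 6 colon markers, 4 were in HCT116, 3 in FaDu and 2 in SiHa, with sums of 10424 to 15622, 5446 to 7512 and 47.8 to 564. CDX1 was at or below 3 reads in all libraries kept of each line, and the summed immune markers lay between 26.3 and 1906 over the kept libraries with no more than 3 of 6 at a mean of 10 in any line.

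Values are normalised counts unless a log2 scale is named, and log2 differences are of the normalised count plus 1, with their SE from a limma fit over the 21 kept libraries. They understate changes of genes with low counts. The fits over the kept libraries and over all libraries as labelled share 1 estimate of the spread per gene across the 6 groups. In the latter the libraries set apart enter that estimate, so a call can be lost with no change in the groups compared. Since counts scale with transcript length, each gene is compared with itself across groups and not with other genes.

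TNFSF10 (ENSG00000121858) and TNFSF15 (ENSG00000181634) are the ligand genes of the set, and the 250 bases before their RefSeq start sites are shown because the level of both spanned over 100-fold between groups of libraries. Both lie on the minus strand of GRCh38.p14, TNFSF10 at chr3:172523431-172523680 and TNFSF15 at chr9:114792531-114792780. Windows are written 5′ to 3′ along the gene, and capitals mark the motifs found in a search of both strands for 7 motifs: GC box (GGGCGG), interferon-stimulated response element core (GAAA and again GAAA with any 2 bases between), GAS element (TTCNNNGAA), AP-1 site (TGANTCA), NF-kappaB site (GGGA and TTCC with any 2 bases between), cAMP response element (TGACGTCA) and TATA box (TATAAA).
TNFSF10: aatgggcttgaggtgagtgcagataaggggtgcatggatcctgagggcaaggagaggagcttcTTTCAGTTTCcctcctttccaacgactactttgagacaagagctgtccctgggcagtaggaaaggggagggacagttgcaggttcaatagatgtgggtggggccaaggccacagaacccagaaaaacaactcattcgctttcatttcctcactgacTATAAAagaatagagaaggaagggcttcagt
TNFSF15: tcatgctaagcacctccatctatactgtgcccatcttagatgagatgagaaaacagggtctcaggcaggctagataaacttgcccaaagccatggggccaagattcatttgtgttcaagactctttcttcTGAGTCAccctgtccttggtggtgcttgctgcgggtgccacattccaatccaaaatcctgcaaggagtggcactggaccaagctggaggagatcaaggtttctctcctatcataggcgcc
The TNFSF10 window held the interferon-stimulated response element core on the reverse strand, 187 bases before the start, which 3.02% of 34796 RefSeq windows of the same length also held. It also held a TATA box 31 bases before the start, found in 10.8% of windows. The TNFSF15 window held 1 match, an AP-1 site 120 bases before the start, as did 6.59% of windows. The 2 windows shared none of the 7 motifs. A match describes letters in a window and shows no binding.

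TNFSF10, the TRAIL gene, stood near the floor in HCT116 at pH 7.4 and far above it in SiHa, and the 2 lines lay closer together at pH 6.5. In HCT116 at pH 7.4 it stood at 6.36, 8.71, 1.01, 0 and 1.15, against 94.99 and 151 at pH 6.5 in replicates 1 and 3. The groups did not overlap, and 3 of the 5 values at pH 7.4 were at the level of at most 1 read. The log2 difference was 5.26 ± 0.67, which a pseudocount of 10 in place of 1 brought to 3.32. A replicate block, which in HCT116 leaves replicates 1 and 3 at both pH values, brought it to 3.83. In these bulk samples fewer cells with the transcript and less of it per cell cannot be told apart. HCT116 pH 6.5 replicates 5 to 7, set apart for their SiHa genes, held 116, 63.2 and 92.7, and over all libraries as labelled the difference was 5.00 ± 0.67.

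In SiHa TNFSF10 moved the other way. Its values were 770, 555 and 926 at pH 7.4 in replicates 1, 4 and 5, and 354, 143, 264, 113 and 74.3 at pH 6.5. The highest library at pH 6.5 lay under the lowest at pH 7.4, and the log2 difference was -2.17 ± 0.59, a mean of 190 ± 116 (SD, n = 5) against 750 ± 186 (n = 3). SiHa pH 7.4 replicates 6 and 7, set apart, held 571 and 1096, within or above the range of the other 3, and the difference with them was -2.21 ± 0.67.

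In FaDu the direction of TNFSF10 depended on which libraries were used. Its values at pH 6.5 were 1157, 402, 473, 456 and 578, and the 1 kept library at pH 7.4 stood at 818, inside that range. The log2 difference was -0.53 ± 0.88. The 4 libraries labelled FaDu pH 7.4 that carried HCT116 genes held 17.1, 201, 91.9 and 66.1, all under the pH 6.5 values, and with them the difference was 2.32 ± 0.67. Among those 4, replicate 2, with the most HCT116 signal at 77.5%, had the lowest TNFSF10 value. Replicate 3, with the least at 28.2%, had the highest. Genes restricted to FaDu stood at medians of 11.1%, 65.4%, 49.9% and 27.7% of their FaDu level in replicates 2 to 5. Why TNFSF10 was low in these libraries was not tested.

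Between lines at the same pH, TNFSF10 was lower in HCT116 than in SiHa at pH 7.4, with a log2 difference of -7.87 ± 0.59 (limma adjusted p = 1.2e-10). At pH 6.5 the order was FaDu, SiHa and then HCT116. FaDu stood above SiHa by 1.80 ± 0.51 (limma adjusted p = 0.00341), with all 5 FaDu libraries above all 5 of SiHa. HCT116 stood below FaDu by a log2 difference of -2.23 ± 0.67 (limma adjusted p = 0.00623), a call lost without HCT116 pH 6.5 replicate 1 (-1.90, limma adjusted p = 0.0793). The 94.99 and 151 of HCT116 lay inside the SiHa range at pH 6.5 of 74.3 to 354, and that pair was not tested.

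TNFSF15 encodes TL1A, a ligand of the death receptor DR3 (TNFRSF25), and it was lower at pH 6.5 in each line. In SiHa it stood at 83.5, 66.3 and 100.4 at pH 7.4 and at 4.04, 2.80, 3.59, 0.86 and 3.42 at pH 6.5, the latter a few reads per library. The log2 difference was -4.48 ± 0.35, or -2.84 with a pseudocount of 10. SiHa pH 7.4 replicates 6 and 7, set apart, held 445 and 329, above the other 3, and with them the difference was -5.36 ± 0.70.

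In HCT116 TNFSF15 stood at 128, 101.1, 115, 47.9 and 51.6 at pH 7.4 and at 16.0 and 12.6 at pH 6.5, with no overlap and a log2 difference of -2.45 ± 0.40. HCT116 pH 6.5 replicate 5, set apart, held 121, while replicates 6 and 7 held 6.94 and 0.79. In FaDu it stood at 627 in the kept library at pH 7.4 and at 158, 127, 177, 179 and 240 at pH 6.5, a log2 difference of -1.86 ± 0.53. The 4 other libraries labelled FaDu pH 7.4 held 96.5, 397, 298 and 270, and with them the difference was -0.73 ± 0.70. The fall in FaDu therefore rests on 1 library at pH 7.4.

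At pH 7.4 the TNFSF15 level of HCT116 and SiHa was within the spread of the libraries, with a log2 difference of -0.01 ± 0.35 (limma adjusted p = 0.99) and overlapping groups. At pH 6.5 FaDu stood above SiHa by 5.54 ± 0.30 (limma adjusted p = 5.29e-13), and HCT116 stood below FaDu, with a log2 difference of -3.51 ± 0.40 (limma adjusted p = 1.29e-07). TNFRSF25, the receptor gene for this ligand, fell in SiHa from 146 ± 37.9 (n = 3) to 72.3 ± 23.4 (n = 5), by a log2 difference of -1.03 ± 0.21 (limma adjusted p = 0.00102). As labelled the difference was also -1.03, with an SE of 0.44 in place of 0.21, and was not called (limma adjusted p = 0.0916).

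**Figure D1:**
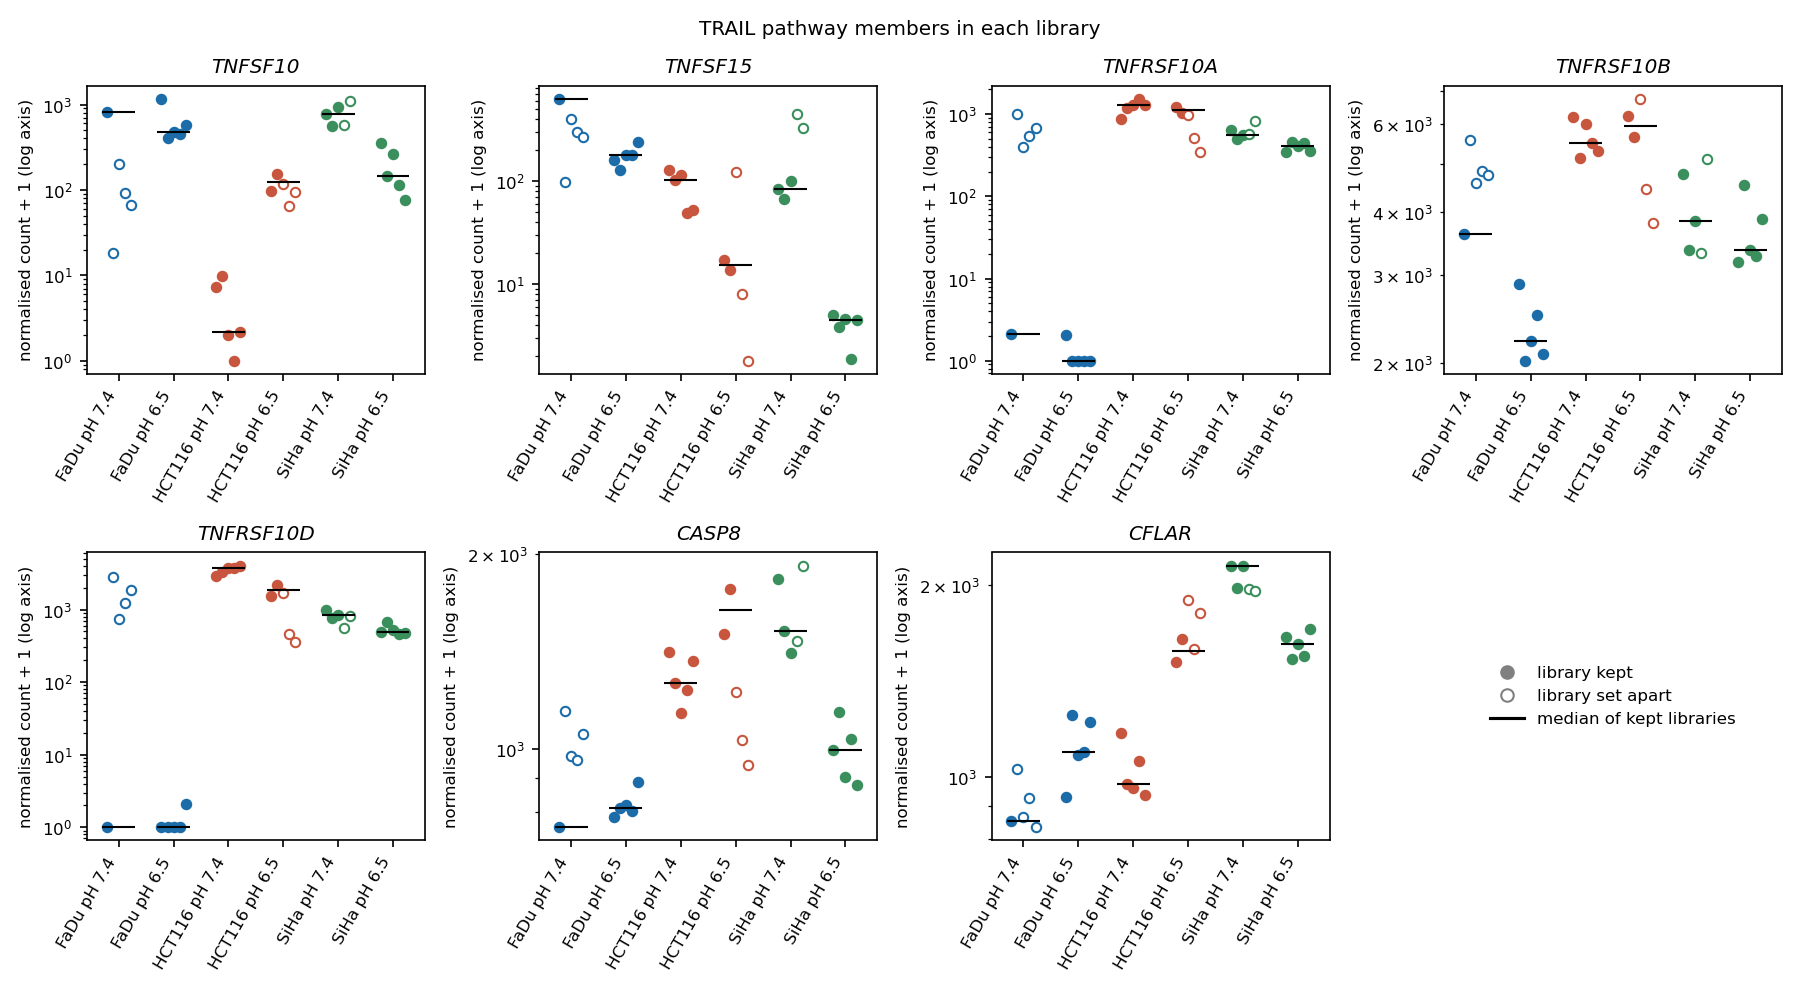
Normalised count plus 1 on a log axis for the 7 genes in each of the 30 libraries, by line and pH. Filled points are libraries kept, open points libraries set apart, and black lines the median of the kept libraries; TNFRSF10A and TNFRSF10D are at 0 or near 1 in every filled FaDu point and at 393 to 2813 in the open ones.

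TNFRSF10A (ENSG00000104689), the gene of death receptor DR4, was read in HCT116 and SiHa and was at the floor in FaDu. At pH 6.5 the 5 FaDu libraries held 1.04, 0, 0, 0 and 0, which is 1 read in all 5, and the kept FaDu library at pH 7.4 held 1.10. In HCT116 it stood at 862, 1173, 1308, 1526 and 1284 at pH 7.4 and at 1228 and 1030 at pH 6.5, and the groups overlapped. In SiHa it stood at 633, 494 and 558 at pH 7.4 and at 342, 453, 410, 441 and 356 at pH 6.5.

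At pH 6.5 the level of TNFRSF10A in SiHa was 2166 times that in FaDu, with a counting interval at 95% of 388 to 85587 from 1964 reads against 1. That in HCT116 was 6104 times that in FaDu, with an interval of 1094 to 241229. Both line differences passed the limma test, at adjusted p = 4.38e-19 for SiHa and adjusted p = 8.05e-18 for HCT116. HCT116 stood above SiHa at pH 7.4 by 1.11 ± 0.23 on the log2 scale (limma adjusted p = 0.000186), a call lost over all libraries as labelled (0.996 ± 0.932, limma adjusted p = 0.345). The differences with pH were small beside these, at -0.49 ± 0.23 in SiHa, without overlap, and -0.11 ± 0.26 in HCT116, where it was -0.71 ± 0.93 as labelled.

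TNFRSF10D (ENSG00000173530), the gene of decoy receptor DcR2, had the same distribution over the lines and was lower at pH 6.5 in both lines that expressed it. FaDu at pH 6.5 held 0, 0, 0, 0 and 1.10, again 1 read in all, and the kept library at pH 7.4 held 0. In HCT116 it stood at 2868, 3243, 3701, 3726 and 4036 at pH 7.4 and at 1557 and 2208 at pH 6.5. In SiHa it stood at 986, 760 and 839 at pH 7.4 and at 482, 667, 524, 458 and 472 at pH 6.5.

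In the kept libraries the pH groups of TNFRSF10D did not overlap in either line. SiHa pH 7.4 replicates 6 and 7, set apart, held 559 and 823, and 559 lay inside the SiHa range at pH 6.5. The log2 differences in the kept libraries were -0.91 ± 0.25 in HCT116 and -0.73 ± 0.22 in SiHa. Without HCT116 pH 6.5 replicate 1 the first was -0.66, and without SiHa pH 7.4 replicate 1 the second was -0.63. As labelled the HCT116 difference was -1.81 ± 1.20. At pH 6.5 its level in SiHa was 2761 times that in FaDu (counting interval 495 to 109107) and in HCT116 10182 times (1826 to 402293). Those line differences passed the limma test at adjusted p = 1.41e-19 and adjusted p = 1.61e-18, and HCT116 stood above SiHa at pH 7.4 by 2.03 ± 0.22 (limma adjusted p = 5.21e-08), which as labelled was 2.16 ± 1.20 and not called (limma adjusted p = 0.11).

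TNFRSF10C, the gene of the other decoy receptor DcR1, was also near the floor in FaDu. Its 5 FaDu libraries at pH 6.5 held 3 reads in all and the kept library at pH 7.4 stood at 6.59, against 68.5 ± 11.7 (SD, n = 5) in SiHa and 381 ± 33.8 (n = 2) in HCT116 at pH 6.5. The SiHa level at pH 6.5 was 121 times that of FaDu (counting interval 41.0 to 589). In HCT116 TNFRSF10C was higher at pH 6.5, at 357 and 405 against 290, 261, 237, 205 and 182 at pH 7.4, without overlap. Its log2 difference of 0.71 was not called (limma adjusted p = 0.132). It was called with edgeR (adjusted p = 0.0297) and DESeq2 (adjusted p = 0.00593). A pseudocount of 10 and a fit of only the 2 groups also called it. In SiHa the difference was 0.08 (limma adjusted p = 0.857). Reads of these related receptor genes may be split between them by the counting, which was not checked here. A value for TNFRSF10C or TNFRSF10D alone is therefore less certain than that all 3 stood at or near the floor in FaDu.

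In FaDu the neighbours of these receptor genes on the chromosome were read. In RefSeq's gene order the run is RHOBTB2, TNFRSF10B, TNFRSF10C, TNFRSF10D, TNFRSF10A and CHMP7. At pH 6.5 FaDu held RHOBTB2 at a mean of 1754, TNFRSF10B at 2337 and CHMP7 at 1408, while the 3 genes between TNFRSF10B and CHMP7 had means of 0.49, 0.22 and 0.21. The 3 genes at the floor are thus consecutive, with read genes on both sides.

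The libraries labelled FaDu pH 7.4 replicates 2 to 5 held these receptors beside their HCT116 signal. TNFRSF10A stood at 992, 393, 549 and 673 in them, or 80.6%, 32.0%, 44.6% and 54.7% of its HCT116 mean at pH 7.4. The 33 genes restricted to HCT116 stood at 77.5%, 28.2%, 39.9% and 58.1% in the same libraries. TNFRSF10D stood at 2813, 752, 1237 and 1841, or 80.0%, 21.4%, 35.2% and 52.4%. TNFRSF10C stood at 94.0%, 58.6%, 73.8% and 93.5% of its HCT116 mean, above the share of the restricted genes in each of the 4. Over all libraries as labelled, the fit gave pH differences of -7.42 ± 0.93 for TNFRSF10A and -8.21 ± 1.20 for TNFRSF10D in FaDu, whereas in the kept libraries neither gene reached the mean of 10 needed for a test at either pH.

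**Figure D2:**
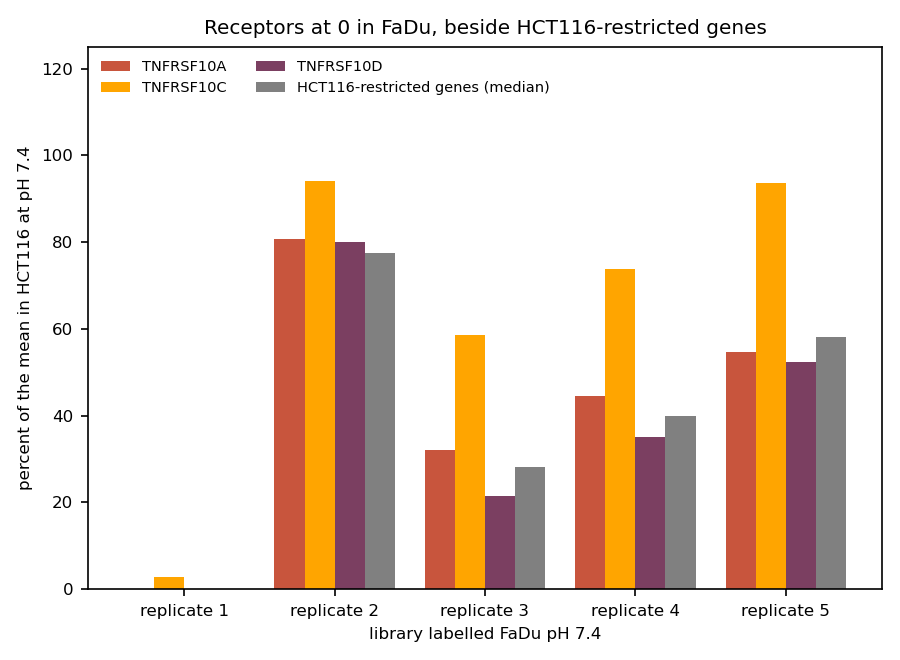
Level of TNFRSF10A, TNFRSF10C and TNFRSF10D in the 5 libraries labelled FaDu pH 7.4, as a percentage of their mean in HCT116 at pH 7.4, beside the median percentage of 33 genes restricted to HCT116 (grey). Replicate 1 is at or near 0 for all, and in replicates 2 to 5 the bars of TNFRSF10A and TNFRSF10D stand near the grey ones, from 21.4% to 80.6% against 28.2% to 77.5%, while those of TNFRSF10C stand higher, from 58.6% to 94.0%.

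TNFRSF10B (ENSG00000120889), the gene of death receptor DR5, was the receptor of this family read in every library. In HCT116 it stood at 6192, 5130, 6013, 5500 and 5300 at pH 7.4 and at 6228 and 5662 at pH 6.5, and in SiHa at 4768, 3368 and 3841 and at 3180, 4533, 3363, 3274 and 3874. The pH groups overlapped in both lines, with log2 differences of 0.08 ± 0.15 and -0.13 ± 0.13. FaDu held 3613 in the kept library at pH 7.4 and 2874, 2019, 2213, 2494 and 2082 at pH 6.5, a log2 difference of -0.64 ± 0.20 that rests on that 1 library. The 4 others labelled FaDu pH 7.4 held 5562, 4569, 4842 and 4747, nearer to the HCT116 values, and with them the difference was -0.996 ± 0.151.

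The order of TNFRSF10B levels was HCT116, SiHa and FaDu. HCT116 stood above SiHa at pH 7.4 by 0.51 ± 0.13 (limma adjusted p = 0.00187). At pH 6.5 FaDu stood below SiHa by a log2 difference of -0.64 ± 0.11 (limma adjusted p = 3.84e-05), and HCT116 stood above FaDu by 1.36 ± 0.15 (limma adjusted p = 9.74e-08). None of these pairs of groups overlapped.

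TNFRSF11B, the gene of osteoprotegerin, was read in SiHa, at 300 ± 80.9 (SD, n = 5) at pH 6.5 and 257 ± 20.1 (n = 3) at pH 7.4, with overlapping groups. In HCT116 its means were 1.72 and 0.99, under the level for testing, and in FaDu it stood at 4.37 to 10.4 at pH 6.5 and at 23.1 in the kept library at pH 7.4. The HCT116 pH 6.5 libraries set apart for SiHa genes held 361, 727 and 383.

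CASP8 (ENSG00000064012), the initiator caspase of the complex, was lower at pH 6.5 in SiHa and higher in HCT116. In SiHa it stood at 1830, 1519 and 1403 at pH 7.4 and at 995, 1139, 903, 1037 and 877 at pH 6.5, without overlap, a log2 difference of -0.68 ± 0.11. In HCT116 it stood at 1410, 1263, 1135, 1232 and 1365 at pH 7.4 and at 1505 and 1766 at pH 6.5, a log2 difference of 0.35 ± 0.12. HCT116 pH 6.5 replicates 5 to 7, set apart, held 1221, 1030 and 943, close to the SiHa values, and as labelled the HCT116 difference was -0.02 ± 0.14. Without HCT116 pH 6.5 replicate 3, the higher of the 2, it was 0.24.

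In FaDu CASP8 stood at 756 in the kept library at pH 7.4 and at 783, 810, 819, 800 and 888 at pH 6.5, a log2 difference of 0.12 ± 0.16, or -0.24 ± 0.14 as labelled. Its level at pH 6.5 was higher in HCT116 than in FaDu by 0.99 ± 0.12 (limma adjusted p = 4.56e-07). FaDu stood below SiHa at pH 6.5 with a log2 difference of -0.27 ± 0.09 (limma adjusted p = 0.0143), the groups overlapping. No library of FaDu or SiHa at pH 6.5 was set apart, so as labelled this difference was again -0.27. Its SE there was 0.14, from the spread shared with the other groups, and it was not called (limma adjusted p = 0.0899). HCT116 stood below SiHa at pH 7.4 at -0.30 ± 0.11 (limma adjusted p = 0.0165), also with overlap, and this call was lost without SiHa pH 7.4 replicate 1 (-0.19, limma adjusted p = 0.148).

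CFLAR (ENSG00000003402), the c-FLIP gene, had the same pair of directions. In SiHa it stood at 2148, 1983 and 2142 at pH 7.4 and at 1659, 1533, 1618, 1549 and 1710 at pH 6.5, a log2 difference of -0.37 ± 0.10. In HCT116 it stood at 1170, 973, 961, 1059 and 935 at pH 7.4 and at 1513 and 1646 at pH 6.5, a log2 difference of 0.63 ± 0.11, and the libraries set apart stood at 1895, 1589 and 1812, of which 1589 lay between the 2 kept libraries and the others above them. In FaDu it stood at 851 in the kept library at pH 7.4 and at 931, 1253, 1082, 1096 and 1218 at pH 6.5, a log2 difference of 0.38 ± 0.15.

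The level of CFLAR at pH 7.4 was lower in HCT116 than in SiHa, by a log2 difference of -1.04 ± 0.10 (limma adjusted p = 6.02e-09). At pH 6.5 it was lower in FaDu than in SiHa (-0.54 ± 0.09, limma adjusted p = 9.06e-06) and higher in HCT116 than in FaDu (0.51 ± 0.11, limma adjusted p = 0.00053). CFLAR, CASP10 and CASP8 are neighbours in RefSeq's gene order. The difference between log2 CFLAR and log2 CASP8 within a library is not corrected for transcript length, so it is read only between groups. It was 0.41 ± 0.19 (SD, n = 3) at pH 7.4 and 0.71 ± 0.21 (n = 5) at pH 6.5 in SiHa, and -0.33 ± 0.13 (n = 5) and -0.05 ± 0.08 (n = 2) in HCT116. Its range in SiHa was 0.23 to 0.61 and 0.43 to 0.96, which overlapped.

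**Figure D3:**
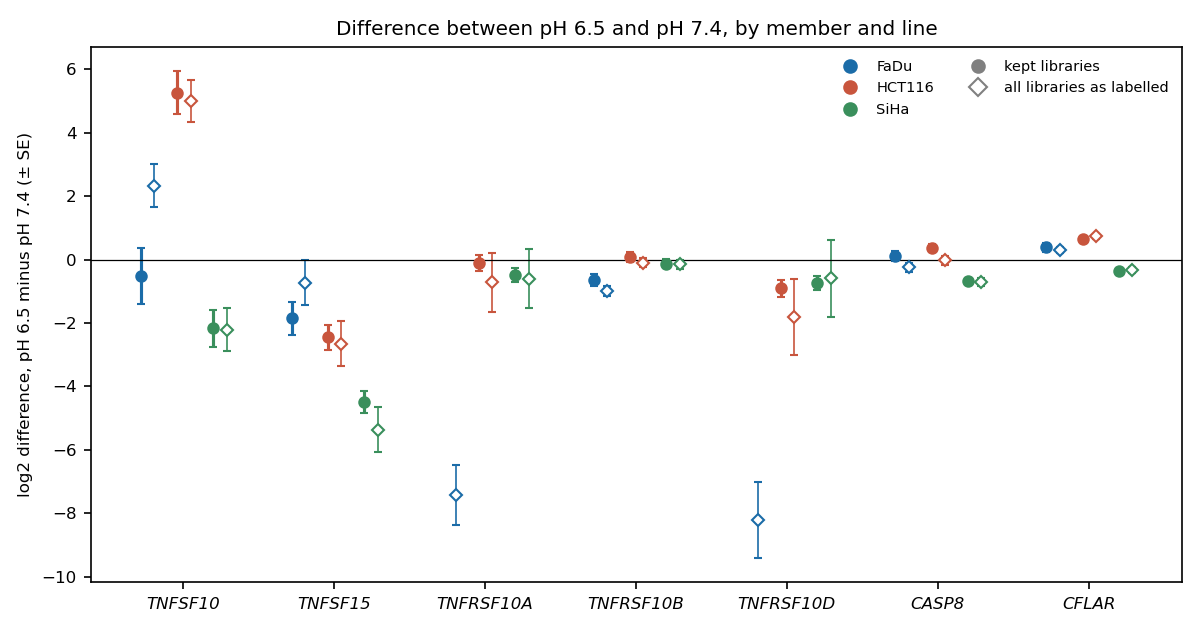
Log2 difference of pH 6.5 minus pH 7.4 with its SE for the 7 genes in the 3 lines, from the kept libraries (circles) and from all libraries as labelled (diamonds). TNFSF10 is at 5.26 in HCT116 and -2.17 in SiHa, TNFSF15 is below 0 in each line, and the FaDu diamonds of TNFRSF10A and TNFRSF10D, at -7.42 and -8.21, have no circle because the kept libraries are at the floor.

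Counted together, 0 of the 7 genes were higher and 5 lower at an adjusted p under 0.05 in SiHa, where 30.2% of the 18555 genes tested passed (14% higher and 16.1% lower). In HCT116 3 were higher and 2 lower, where 23.7% of 18885 genes passed (11.4% higher and 12.3% lower), and in FaDu 0 were higher and 2 lower of the 5 that could be tested, where 13.5% of 19170 genes passed (6.27% higher and 7.26% lower). The pH groups did not overlap for 6 of 7 genes in SiHa, 5 of 7 in HCT116 and 4 of 5 in FaDu, beside 35.5%, 36.2% and 57.1% of all genes tested. The genes were chosen for these differences, so nothing follows from the counts. Leaving out single libraries gave 4 to 6 of 7 in SiHa, 3 to 5 of 7 in HCT116 and 1 to 3 of 5 in FaDu. HCT116 lost TNFRSF10D without HCT116 pH 6.5 replicate 1 and CASP8 in 9 of 20 omissions, those of either HCT116 pH 6.5 library among them, and FaDu lost TNFRSF10B without FaDu pH 6.5 replicate 2, 3 or 5. The median log2 difference over the tested members was -0.68 in SiHa, 0.08 in HCT116 and -0.53 in FaDu, beside -0.01 over all genes in each line.

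Between lines, 6 of 7 differed for HCT116 against SiHa at pH 7.4, where 72.1% of all genes tested passed. All 7 differed for FaDu against SiHa at pH 6.5 and all 7 for HCT116 against FaDu at pH 6.5, where 73.7% and 66.6% of genes passed. The 2 groups did not overlap for 5, 6 and 7 of the 7 genes in these comparisons, beside 68.7%, 60% and 67.9% of all genes tested. With 7 genes these shares are not far from a background in which most genes differ between the lines.

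The wider death pathway moved in both directions in each line. In SiHa 11 of the 72 tested genes outside the 7 rose and 14 fell, in HCT116 13 of 74 rose and 9 fell, and in FaDu 3 of 75 rose and 10 fell. In SiHa that is 15.3% higher and 19.4% lower, in HCT116 17.6% and 12.2% and in FaDu 4% and 13.3%, of which the share lower in FaDu and that higher in HCT116 stood furthest from those over all genes, given above. No test was put to these differences in share. The median log2 differences were -0.07, 0.03 and -0.09. The pH effect differed between the lines for 38 of 78 genes, where 33.1% of 22127 genes did.

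Among the other ligands of the TNF superfamily, the 7 genes aside, SiHa had 2 that fell and none that rose, beside 16.1% and 14% of all genes. With the ligands among the 7 included, the list had 9 genes tested in SiHa and 10 in HCT116. TNFSF14, whose product LIGHT costimulates T cells, fell from 150 ± 89.6 (n = 3) to 15.4 ± 9.84 (n = 5), by a log2 difference of -3.30 ± 0.66 (limma adjusted p = 0.000778). The other was TNFSF8, the CD30 ligand gene, at -2.86 with means of 11.4 and 1.17, named after its values were seen. In HCT116, TNFSF4, the OX40 ligand gene, rose from 48.6 ± 11.5 (n = 5) to 487 ± 147 (n = 2), by 3.29 ± 0.39 (limma adjusted p = 2.44e-06). LTB rose there from 2.76 to 22.9, the second of the 2 that passed, beside 11.4% of all genes that rose and 12.3% that fell. In FaDu, TNFSF9, the 4-1BB ligand gene, stood at 1273 in the 1 kept library at pH 7.4 and at 228 ± 77.4 at pH 6.5 (-2.54 ± 0.44, limma adjusted p = 0.000774), and CD70 at 802 and 174 ± 115 (-2.42 ± 0.61, limma adjusted p = 0.0111). The CD70 call was lost over all libraries as labelled (-1.21, limma adjusted p = 0.36) and in a fit of only the 2 groups (limma adjusted p = 0.0854).

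Among receptors of other death ligands, FAS and TNFRSF1B had opposite differences in SiHa and HCT116. FAS, the receptor of the Fas ligand, fell in SiHa from 1072 ± 216 to 581 ± 80.5 and rose in HCT116 from 579 ± 89.0 to 893 ± 131, and its pH effect differed between the lines (limma F-test, adjusted p = 0.000347). FAS was singled out after its values were seen, and its call in HCT116 was lost without HCT116 pH 6.5 replicate 1 (0.48, limma adjusted p = 0.206) and over all libraries as labelled (0.32, limma adjusted p = 0.116). TNFRSF1B, a TNF receptor without a death domain, rose in SiHa from 16.7 ± 1.86 to 104 ± 38.7 (2.49 ± 0.40, limma adjusted p = 0.000106), fell in HCT116 from 19.4 ± 4.88 to 2.86 ± 0.82 and stood in FaDu at 4.39 and 32.4 ± 18.1. As labelled TNFRSF1B was not called in SiHa (2.05, limma adjusted p = 0.0632) or in FaDu (1.55, limma adjusted p = 0.12), and in HCT116 its log2 difference turned to 0.76 (limma adjusted p = 0.442). TNFRSF21, the gene of DR6, fell in HCT116 from 3897 to 2111 (-0.86 ± 0.24, limma adjusted p = 0.0119), a call lost without HCT116 pH 6.5 replicate 3 (-0.63, limma adjusted p = 0.165).

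In the list of the death-inducing complex and necroptosis, the 7 genes aside, CASP10 fell in SiHa from 455 ± 13.8 to 267 ± 31.5 (-0.77 ± 0.14, limma adjusted p = 0.000354) and rose in HCT116 from 174 ± 26.2 to 236 ± 39.8 (0.45, limma adjusted p = 0.0487). The HCT116 call was lost in 16 of 20 omissions of 1 library, most clearly without HCT116 pH 6.5 replicate 3 (0.27, limma adjusted p = 0.372). CASP10 is the initiator caspase next to CASP8. FADD, the adaptor, did not pass in any line, with log2 differences of -0.10, 0.12 and -0.14 in SiHa, HCT116 and FaDu. In HCT116, TNFAIP3, which encodes the NF-kappaB inhibitor A20, rose from 132 ± 30.2 to 461 ± 302 (1.65 ± 0.39, limma adjusted p = 0.00346), a call lost without HCT116 pH 6.5 replicate 1 (0.93, limma adjusted p = 0.199). In FaDu, DEDD2, a death effector domain gene, stood at 1087 and 1573 ± 184 (0.52 ± 0.14, limma adjusted p = 0.0188), a call lost in a fit of only the 2 groups (limma adjusted p = 0.100).

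Of the inhibitors of apoptosis and their antagonists, 2 rose and 2 fell of 7 in SiHa, 1 and 1 of 8 in HCT116 and 0 and 2 of 7 in FaDu. Over all genes 14% rose and 16.1% fell in SiHa, 11.4% and 12.3% in HCT116 and 6.27% and 7.26% in FaDu. With so few genes per list, nothing is read from these counts. BIRC3, the gene of cIAP2, rose in HCT116 from 159 ± 36.1 to 618 ± 225 (1.93 ± 0.39, limma adjusted p = 0.000916). In FaDu it stood at 1673 and 641 ± 418 (-1.59 ± 0.51, limma adjusted p = 0.0414), and that call was lost without FaDu pH 6.5 replicates 2, 3, 4 or 5 or SiHa pH 7.4 replicate 5 (limma adjusted p up to 0.0659) and in a fit of only the 2 groups (limma adjusted p = 0.18). BIRC2, the gene of cIAP1, stood in FaDu at 6059 and 2062 ± 705 (-1.61 ± 0.26, limma adjusted p = 0.000434). In SiHa, BIRC5, the survivin gene, rose from 844 ± 210 to 1542 ± 283 (0.88 ± 0.19, limma adjusted p = 0.0018), and BIRC6 fell by a log2 difference of -0.53 ± 0.16, a call lost without SiHa pH 7.4 replicate 4 (-0.38, limma adjusted p = 0.121).

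Of 11 genes of caspases, the apoptosome and their substrates, 1 rose and 1 fell in SiHa, 0 and 1 in HCT116 and 1 and 0 in FaDu. A single gene is 9.09% of this list. Over all genes 14% rose and 16.1% fell in SiHa, 11.4% and 12.3% in HCT116 and 6.27% and 7.26% in FaDu. PARP1, a substrate of caspases, rose in SiHa by 0.33 ± 0.10 (limma adjusted p = 0.018), a call lost without SiHa pH 7.4 replicate 1 (0.27, limma adjusted p = 0.107), and in FaDu by 0.72 ± 0.15 (limma adjusted p = 0.00343), which as labelled was 0.26 (limma adjusted p = 0.144). ROCK1, a kinase that caspases cleave, fell in HCT116 from 4058 ± 523 to 2438 ± 87.1 (-0.73 ± 0.13, limma adjusted p = 0.000367), and as labelled it stood at -0.17 (limma adjusted p = 0.407).

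Of 15 BCL2 family genes tested per line, 0 rose and 3 fell in SiHa, 1 and 1 in HCT116 and 0 and 3 in FaDu. The 3 that fell are 20% of the list, beside 16.1% of all genes in SiHa and 7.26% in FaDu, where 14% and 6.27% of all genes rose. In HCT116 the 1 that rose and the 1 that fell are each 6.67%, beside 11.4% and 12.3% of all genes. BIK, a BH3-only gene, fell in SiHa from 124.7 ± 35.6 to 38.2 ± 5.07 (-1.65 ± 0.23, limma adjusted p = 2.17e-05). BOK fell in HCT116 from 2457 ± 221 to 1804 ± 168 (-0.44 ± 0.16, limma adjusted p = 0.046), a call lost in 12 of 20 omissions of a library (limma adjusted p up to 0.258) and with edgeR (adjusted p = 0.0525). PMAIP1, the NOXA gene, stood in FaDu at 1853 and 553 ± 223 (-1.82 ± 0.34, limma adjusted p = 0.00149). BCL2L2 stood there at 6312 and 4109 ± 639 (-0.63 ± 0.18, limma adjusted p = 0.0208), and as labelled the sign was reversed, at 0.34 (limma adjusted p = 0.166).

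The last list held known inducers and modifiers of TRAIL and its receptors. In HCT116, IRF1, a transcription factor of the interferon response, rose from 448 ± 35.4 to 1229 ± 442 (1.41 ± 0.25, limma adjusted p = 0.000282). In SiHa IRF1 did not pass, at 0.24 ± 0.22. A link between IRF1 and TNFSF10 in these libraries was not tested. The pH effect on IRF1 differed between the lines (limma F-test, adjusted p = 0.0019).

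GALNT3, an enzyme that starts O-glycans, fell in SiHa from 369 ± 48.5 to 14.97 ± 8.12 (-4.69 ± 0.30, limma adjusted p = 1.1e-09) and in HCT116 from 1171 ± 205 to 570 ± 24.5 (-1.02, limma adjusted p = 0.0374). O-glycosylation of the death receptors is known to modify their response to TRAIL, as described for GALNT14 and GALNT3. DDIT3, the gene of the stress factor CHOP, a known inducer of TNFRSF10B, rose in SiHa from 172 ± 44.6 to 385 ± 112 (1.13 ± 0.31, limma adjusted p = 0.00955), a call lost without SiHa pH 7.4 replicate 5 (0.98, limma adjusted p = 0.0581). It rose in HCT116 (1.37, limma adjusted p = 0.00793), a call lost without HCT116 pH 6.5 replicate 1 (0.47, limma adjusted p = 0.455). A link between DDIT3 and TNFRSF10B in these libraries was not tested. In FaDu DDIT3 stood at 1405 and 222 ± 49.3 (-2.69 ± 0.47, limma adjusted p = 0.000888), and TRIB3 at 6309 and 1466 ± 369 (-2.14 ± 0.33, limma adjusted p = 0.000295), both resting on 1 library at pH 7.4. As labelled the FaDu difference of DDIT3 was -0.21 (limma adjusted p = 0.72).

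**Figure D4:**
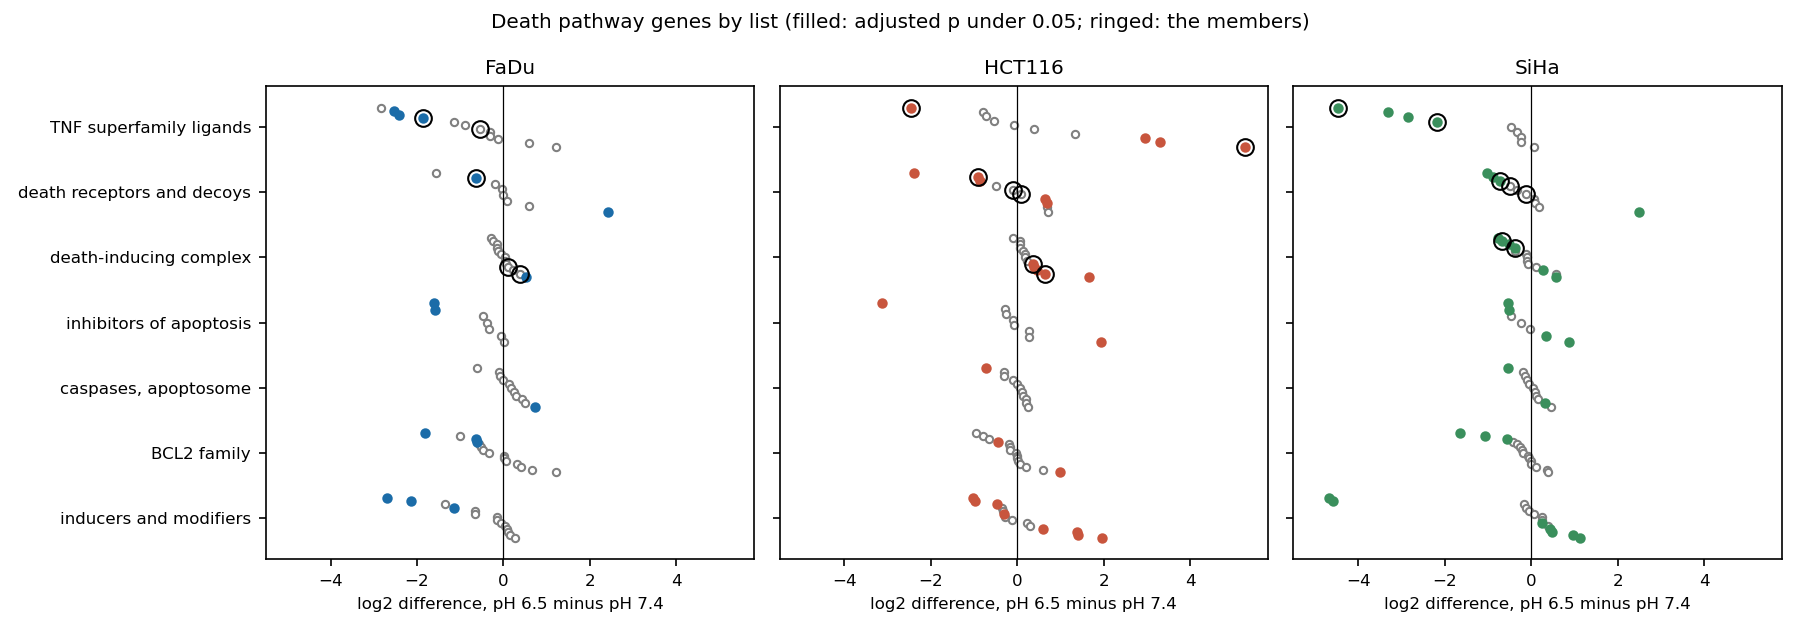
Log2 difference of pH 6.5 minus pH 7.4 for every tested gene of the 7 death pathway lists, by line, from the kept libraries. Filled points have a limma adjusted p under 0.05 and ringed points are the 7 genes described first; in SiHa 11 other genes lie right of 0 and 14 left among the filled points, in HCT116 13 and 9, and in FaDu 3 and 10.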

How the data were processed

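Total RNA was sequenced in 30 libraries of 3 human cancer lines at 2 pH values, grouped by the labels. The submitters' processing notes name the build GRCh37, STAR 2.6.1d, Trimmomatic 0.38, bcl2fastq 2.20, DESeq2 1.22.2 and FastQC. Neither the counter nor its strand setting nor the annotation release is given there or in the labels, so overlapping antisense genes cannot be told apart. The values the authors deposited are in the unit signal: normalised counts per gene, each a whole multiple of a step per library (100% of values within 0.01 of a step), from which whole reads were recovered. Symbols matched 35466 of 38122 identifiers.

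The members and lists were chosen with earlier results of these data known. So were the 9 libraries set apart, which the rule for the members lists. limma 3.58.1 (R 4.3.3) with an intensity trend was fitted to log2 of the normalised count plus 1, in 1 fit over the 21 kept libraries, for genes whose higher group averaged 10 or more. Tests were 2-sided with Benjamini-Hochberg adjustment over all genes tested and a threshold of 0.05. FaDu at pH 7.4 has 1 library, assumed to vary like the other groups. The fit was tested on simulated data. Alternatives were edgeR 4.0.16, DESeq2 1.42.0, TMM scaling, another pseudocount, no filter, a replicate block, only the 2 groups compared, libraries as labelled and leaving out each library.

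Beside the members, TNFRSF10C and TNFRSF11B, up to 2 genes per list and line were named: those with the largest absolute log2 change among genes that passed, averaged 100 or more in the higher group and did not overlap between groups. For members whose group medians spanned over 3 on the log2 scale, the 3 genes most alike were named. Promoter windows are from RefSeq on GRCh38.p14. The rest used pandas 2.3.3, scipy 1.17.1, numpy 2.4.6 and matplotlib 3.10.9 in Python 3.11.15. Sequences of the receptor genes are not reported here.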

Additional observations from a re-analysis of the deposited data

Results flagged for a closer look

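TNFSF10 stood at 1157 in FaDu pH 6.5 replicate 1, far from the other 4 libraries of that group, which lay between 402 and 578. This was 1 of 23 sets of values checked, each 1 of 9 genes in a group of 4 or more libraries, and chance gives about 1 in 20.

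The members TNFSF10, CASP8 and CFLAR had opposite differences with pH in HCT116 and SiHa. The log2 differences were 5.26 and -2.17 for TNFSF10, 0.35 and -0.68 for CASP8, and 0.63 and -0.37 for CFLAR, HCT116 first. These are a description, and the p of the test between lines is not given, since the genes were chosen with these values known. CASP8 in HCT116 was at -0.021 over all libraries as labelled.

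Of the other death pathway genes, 8 were called higher in 1 line and lower in another and also passed the limma F-test between lines. They were picked by these opposite calls in the same fit, so the p-values of that F-test add no support. Of all genes tested, 33.1% passed the F-test, and the share of all genes with opposite calls was not counted. CASP10 (-0.77 in SiHa and 0.45 in HCT116, adjusted p = 0.000849) and FAS (-0.88 and 0.63, adjusted p = 0.000347) fell in SiHa and rose in HCT116. FOXO3 (0.43 in SiHa and -0.98 in HCT116, adjusted p = 0.00042) and YY1 (0.25 and -0.30, adjusted p = 0.0065) rose in SiHa and fell in HCT116, and both encode transcription factors. TNFRSF1B rose in SiHa and FaDu and fell in HCT116 (adjusted p = 1.19e-05). DDIT3 rose in SiHa and HCT116 and fell in FaDu (adjusted p = 5.77e-05), ATF4 rose in SiHa and fell in FaDu (0.47 and -1.14, adjusted p = 0.000834), and BIRC3 rose in HCT116 and fell in FaDu (adjusted p = 0.000512). The FaDu values rest on 1 library at pH 7.4, and over all libraries as labelled DDIT3 in FaDu was at -0.21, ATF4 at -0.41 and TNFRSF1B at 1.55, none of them called.

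Most of these opposite calls were lost in 1 of their lines when a single library was left out. In SiHa they were ATF4 (adjusted p = 0.150 without SiHa pH 7.4 replicate 4, and lost without 4 other SiHa libraries), FOXO3 (0.191 without SiHa pH 7.4 replicate 1, and without 4 others), YY1 (0.143 without SiHa pH 7.4 replicate 1, and also without pH 6.5 replicate 7) and DDIT3 (0.0581 without SiHa pH 7.4 replicate 5). In HCT116 they were DDIT3 (0.47, adjusted p = 0.455), FAS (0.48, adjusted p = 0.206) and YY1 (-0.26, adjusted p = 0.189), each without HCT116 pH 6.5 replicate 1, and CASP10 without replicate 3 (0.27, adjusted p = 0.372). YY1 in HCT116 was lost also without HCT116 pH 6.5 replicate 3 and pH 7.4 replicate 5. BIRC3 in FaDu had adjusted p-values of 0.0507 to 0.0659 without any of FaDu pH 6.5 replicates 2 to 5 or SiHa pH 7.4 replicate 5. TNFRSF1B was called in all 3 lines in every omission run, but its FaDu call was lost in a fit of only the 2 groups (adjusted p = 0.102), and as labelled none of its 3 calls held.

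Receptor genes appeared in libraries set apart that the kept libraries of the same label lacked. In the 4 labelled FaDu pH 7.4, TNFRSF10A stood at 393 to 992, TNFRSF10D at 752 to 2813 and TNFRSF10C at 138 to 221, against at most 1.10, 1.10 and 6.59 in kept FaDu libraries. In the 3 labelled HCT116 pH 6.5, TNFRSF11B stood at 361 to 727, against at most 3.43 in kept HCT116 libraries. These libraries carried genes restricted to HCT116 and to SiHa at 28.2% to 77.5% and 35.9% to 103% of their level.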

How the results depend on the processing

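Counts of genes called moved by over 1.5 times under these alternatives. In SiHa (5596 genes) the replicate block gave 2776. In HCT116 (4483) the libraries as labelled gave 8890, the replicate block 1718 and both together 8948. In FaDu (2593) the libraries as labelled gave 7961, a fit of only the 2 groups 1411, the replicate block 7 and both the block and the libraries as labelled 8049. The difference between the lines (7327) gave 949 with the replicate block. Leaving out 1 library gave 3810 to 6250 genes in SiHa, 2606 to 5088 in HCT116 and 2039 to 4104 in FaDu. It gave 5955 to 8922 for the difference between the lines, and 13612 to 14848, 14206 to 14845 and 11565 to 13759 for HCT116 against SiHa, FaDu against SiHa and HCT116 against FaDu. HCT116 had 2606 without HCT116 pH 6.5 replicate 1, and FaDu 4104 without FaDu pH 6.5 replicate 1. FaDu pH 7.4 replicate 1 could not be left out, since no other library of that group was kept. With the libraries as labelled, with or without the block, the log2 difference of CASP8 in HCT116 was -0.021, that of TNFRSF1B in HCT116 0.76 and that of BCL2L2 in FaDu 0.34, the reverse of the kept libraries. TNFSF10 in FaDu was 0.50 under the block and 2.32 as labelled, and in HCT116 it was 3.83 under the block. Among the named genes, DESeq2 and TMM scaling ended no call, edgeR ended that of BOK, and no filter those of BOK, BIRC3 in FaDu, CASP10 in HCT116 and FOXO3 in SiHa. TNFRSF10C in HCT116 gained a call with edgeR, DESeq2, a pseudocount of 10 and a fit of only the 2 groups. TNFRSF11B in FaDu, which rests on 1 library at pH 7.4, gained a call with edgeR, DESeq2 and a pseudocount of 10. A fit of only the 2 groups ended the FaDu calls of CD70, DEDD2, BIRC3, BCL2L2 and TNFRSF1B. It also ended the HCT116 calls of CASP10 (limma adjusted p = 0.15) and YY1 (limma adjusted p = 0.0905). The libraries as labelled ended 15 calls without a change of sign, the pH differences of the 7 members not counted. They also ended the calls of TNFRSF1B in HCT116 and BCL2L2 in FaDu, whose sign turned. By the same count the replicate block ended 22, and in FaDu, where it leaves the pair of replicates 1 alone, log2 differences fell in size for BIRC3 (-0.30), CD70 (-1.12), PMAIP1 (-0.97), BIRC2 (-0.87) and TNFRSF10B (-0.33). The causes were not tested. Same-numbered libraries of the 2 pH groups had correlations of -0.05 to 0.25 in their deviations. Libraries with different numbers were not compared in this way, so whether the numbers pair the libraries cannot be told. The block could not be fitted for the comparisons between lines.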

Other observations

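For the 4 members whose group medians spanned over 3 on the log2 scale, the genes with the most similar profile over the 21 kept libraries were picked by the root mean square difference of centred log2 values. The libraries share their lines and pH, so likeness over them is a description. Most like TNFSF10 were SAMD9L (0.77), XAF1 (1.03) and NRG1 (1.15). SAMD9L and XAF1 are known interferon-inducible genes, and in HCT116 SAMD9L had means of 1.89 at pH 7.4 and 114 at pH 6.5, and XAF1 3.57 and 270.4. In SiHa the same genes had means of 477 and 228, and 343 and 232.

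Most like TNFSF15 were C1orf116 (0.77), UPK3B (0.87) and GALNT7 (0.88). Their means in SiHa were 431, 218 and 397 at pH 7.4 and 57.1, 40.1 and 33.9 at pH 6.5. In HCT116 they were 720, 390 and 1033 at pH 7.4 and 119, 62.3 and 363 at pH 6.5. GALNT7 encodes an enzyme of O-glycan synthesis, the family of GALNT3.

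Most like TNFRSF10A were MSL3P1 (0.45), ELFN1-AS1 (0.63) and ZXDB (0.75), and most like TNFRSF10D were MEX3C (0.66), ME2 (0.72) and MSL3P1 (0.83). Each of these 5 genes had a mean of at most 0.22 in FaDu at either pH. In the other lines their group means lay between 166 and 2799.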
